A study of Mus musculus with 9 samples.

Results

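Heat shock proteins and their DNAJ partners were followed across 9 libraries of polyadenylated RNA from mouse ovary. The 75 members were chosen by symbol from the 22544 genes and assembled loci of the deposited table, as names that start with Hspa, Hspb, Hspd, Hspe, Hsph or Hsp90, or with Dnaja, Dnajb or Dnajc and a number. They comprise 13 Hspa, 10 Hspb, 3 Hsp90, 1 Hspd, 2 Hspe and 1 Hsph genes and 4 Dnaja, 13 Dnajb and 28 Dnajc genes. By the known location of their proteins, 44 were grouped as cytosolic (nucleus included), 13 as endoplasmic reticulum and 8 as mitochondrial, and 10 were left as other or not assigned. The 3 groups held 3 libraries each. The labels of NC name no treatment. CTX commonly stands for cyclophosphamide, a chemotherapy agent that alkylates DNA and is toxic to ovarian follicles. The HBOT group received CTX and hyperbaric oxygen, as the series' design text has it. No group analysed here had hyperbaric oxygen alone. For strain, age, dose and schedule, nothing is given in the sources used here. Whether the libraries of a group came from separate animals is not stated in the labels, so a p-value reflects the spread among these libraries only, which may be technical.

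Heat shock proteins are chaperones, which bind unfolded stretches of other proteins and keep them from clumping. HSP70 proteins work in a cycle of ATP binding and hydrolysis, DNAJ (HSP40) proteins bring them their clients and start the hydrolysis, and nucleotide exchange factors such as the HSP110 proteins end the cycle, while HSP90 acts later on folded clients such as kinases and steroid hormone receptors. The cytosol, the endoplasmic reticulum and the mitochondria have their own sets, switched on by the heat shock factor HSF1, by the unfolded protein response and by mitochondrial stress. In the ovary, growing oocytes and steroid-secreting cells make large amounts of protein and membrane, and chaperones are part of steroid receptor folding.

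Levels are FPKM, fragments per kilobase of transcript scaled to the mapped fragments of the library, a scale per length on which genes can be compared. Differences are on log2(FPKM + 1), which understates the change of low genes, and were tested with limma in 1 fit of all 9 libraries on the 13338 genes that reached 1 FPKM in 3 or more libraries. Calls were made where the p adjusted over all of those genes was under 0.05. Of the 75 members, 66 passed this filter. One library, HBOT replicate 2, was unlike the rest: 1637 tested genes (12.3%) deviated in it by over 1 log2 unit from the other 8 libraries' mean, against 173 to 347 genes in any other library. It alone held the ovulatory growth factor Ereg at 361 FPKM, which was at most 0.964 elsewhere. Markers of granulosa cells (Foxl2 52.6 to 110 FPKM), oocytes (Gdf9 28.3 to 83.7) and steroid cells (Cyp11a1 1468 to 4275) were present in each library. Foxj1 of oviduct cilia was at most 0.812, and the fat cell gene Adipoq was listed at 0 in all but CTX replicate 1 (5.24). Of the same lists, Dnah5, Tekt1 and Pax8 were also under 1 FPKM, and Cidec and Lep at 0 outside CTX replicate 1. Ovgp1 of the oviduct was at 1.99 to 10.1 FPKM, and the fat cell genes Plin1 and Fabp4 at 0.698 to 23.9 and 1.04 to 12.1. In RNA of whole tissue, fewer cells of a type and less RNA per cell cannot be told apart.

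The promoter sequences of 6 members are shown first, and each holds a match to a known control element. Of the 6, Hspa5 and Hsp90b1 had similar levels (ratio 0.866 to 1.17). Hspa1b kept a ratio of 1.71 to 1.95 to Hspa1a, its near-identical copy. HSF1 binds the heat shock element, GAA units in alternating orientation, which was searched as a pair, GAA and TTC with 2 bases between (the same on both strands), and as the 3-unit element with a further unit after 2 more bases, each of which contains a pair. The endoplasmic reticulum stress element, CCAAT and 9 bases on CCACG, was searched on both strands. RefSeq promoter windows of 300 bases (build GRCm38.p6, 250 before the start site and 50 after), matched by symbol, were found for 60 members. Those without one include Dnajc12, Dnajc2, Dnajc5, Dnajc5b, Hsp90aa1, Hsp90ab1, Hspa8, Hspb2, Hspa13, Dnajc11, Dnajc30, Hspa9, Dnajc18 and Dnajc22. The coordinates below are of that build, not of the GRCm39 build of the FPKM table. The pair was in 14 of the 60 (23.3%), against 9.04% of 27025 genes with a window, and the 3-unit element in 4 (6.67%, against 0.662%), Hspd1, Hspe1, Hsph1 and Dnajb6. The stress element was in 3 of the 60 (5%, against 0.137%), and those were 3 of the 12 endoplasmic reticulum members, Hspa5, Hsp90b1 and Dnajc3. A gene was counted if any of its windows held a match, and a match describes the letters of the window only. The last 120 bases before the start site follow, 5′ to 3′ on the strand of the gene, with the matches in capitals:
Hspe1, chr1:55088028-55088147, + strand: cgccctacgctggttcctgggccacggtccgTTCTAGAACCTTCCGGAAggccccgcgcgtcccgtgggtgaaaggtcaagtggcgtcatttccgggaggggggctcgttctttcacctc
Dnaja4, chr9:54699439-54699558, + strand: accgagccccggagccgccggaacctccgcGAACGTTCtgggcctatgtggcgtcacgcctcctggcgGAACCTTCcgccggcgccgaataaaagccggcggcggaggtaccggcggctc
Hspa1a, chr17:34972157-34972276, - strand: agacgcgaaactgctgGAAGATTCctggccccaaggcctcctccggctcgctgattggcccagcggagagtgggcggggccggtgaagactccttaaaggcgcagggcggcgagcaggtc
Hspa1b, chr17:34959239-34959358, - strand: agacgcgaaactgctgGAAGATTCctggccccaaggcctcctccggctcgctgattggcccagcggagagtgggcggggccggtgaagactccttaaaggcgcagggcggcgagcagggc
Hspa5, chr2:34771970-34772089, + strand: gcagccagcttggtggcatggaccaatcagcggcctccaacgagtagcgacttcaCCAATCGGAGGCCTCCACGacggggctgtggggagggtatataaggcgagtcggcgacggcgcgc
Hsp90b1, chr10:86705445-86705564, - strand: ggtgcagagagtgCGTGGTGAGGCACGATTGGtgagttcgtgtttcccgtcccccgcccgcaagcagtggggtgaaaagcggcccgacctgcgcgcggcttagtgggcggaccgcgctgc

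Hspd1 and Hspe1 lie head to head. Of the windows of Hspd1, the one with matches was used: its start site lies 216 bases from that of Hspe1. The run of heat shock units between these start sites lies in the windows of both. Another Hspd1 window, chr1:55088194-55088493 on the - strand, held no match. The 250 bases before Hspa1a and Hspa1b were identical at 247 positions (98.8%). Dnaja4 held 2 pairs in the window shown, beginning 90 and 52 bases before its start site. That window was taken for its matches, and the other window of Dnaja4 held no match. Hsp90b1 held a second stress element further upstream, beginning 212 bases before its start site.

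The members together made up 1.03% to 1.34% of the FPKM sum of a library, with HBOT replicate 2 highest. A few genes carried most of it: the top 5 held 57.4% of the members' summed FPKM and the top 10 held 73.1%. Hsp90ab1, the constitutive cytosolic HSP90, had the highest mean over the 9 libraries (847 FPKM), followed by Hspa8, the constitutive HSP70 (679 FPKM). Hsp90ab1 was above Hspa8 in each library, with a ratio of Hspa8 to Hsp90ab1 of 0.709 to 0.883. Next came the endoplasmic reticulum pair Hspa5 (BiP, 395 FPKM) and Hsp90b1 (GRP94, 390 FPKM), whose order changed from library to library (ratio 0.866 to 1.17). Below them stood the mitochondrial chaperonin Hspd1 (HSP60, 275 FPKM) and its partner Hspe1 (HSP10, 191 FPKM), the inducible HSP90 gene Hsp90aa1 (169 FPKM) and the mitochondrial HSP70 Hspa9 (128 FPKM). The most abundant DNAJ genes were Dnaja1 (111 FPKM), a main cytosolic partner of HSP70, and Dnajc7 (106 FPKM), which binds both HSP70 and HSP90. Hspe1 and Hsp90aa1 overlapped in range over the libraries, as did Dnaja1 and Dnajc7.

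**Figure D1:**
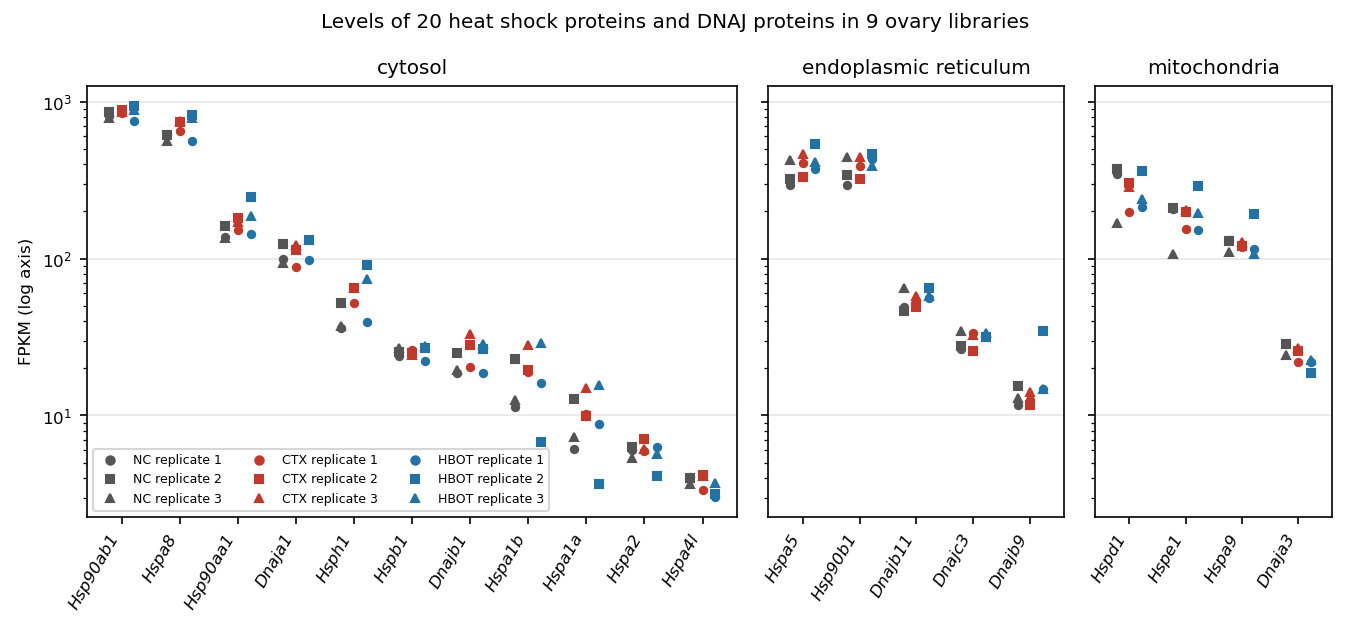
FPKM (log axis) of 20 members in each of the 9 libraries, by compartment; colour gives the group and the symbol the replicate. Hsp90ab1 and Hspa8 stand highest, with values from 563 to 942.5 FPKM, and HBOT replicate 2 (blue square) is far from the other libraries for Dnajb9, Hspa1a and Hspa1b.

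Under limma, 0 of the 66 tested members were called in any of the 3 comparisons, where 0% of all 13338 genes were called. The smallest adjusted p among members was 0.492 for CTX against NC, 0.710 for HBOT against CTX and 0.235 for HBOT against NC. For CTX against NC, 2 members (3.03%) had an unadjusted p under 0.05, against 7.98% of all genes: 1 was higher, where 5.24% of all genes were, and 1 lower, where 2.74% were. For HBOT against CTX there were 2 (3.03%), against 6.09% of all genes: 0 higher (2.41% of all genes) and 2 lower (3.67%). For HBOT against NC there were 6 (9.09%), against 11.9% of all genes: 4 higher (6.22% of all genes) and 2 lower (5.65%). These counts turn with scaling in the last comparison: 1 higher and 3 lower with TPM, and 3 higher and 5 lower with median-of-ratios scaling. All genes turned as well: 52.4% of those at that level were higher, against 42.3% with TPM and 46.9% with median-of-ratios scaling. Without HBOT replicate 2, 0 members were called in any comparison, where 0.0604% of all genes were called for CTX against NC and 0% for the other comparisons. The members at an unadjusted p under 0.05 were then 2 higher (10.1% of all genes) and 2 lower (5.65%) for CTX against NC, 1 higher (3.02%) and 2 lower (2.17%) for HBOT against CTX, and 1 higher (8.79%) and 2 lower (4.34%) for HBOT against NC. Means of log2(FPKM + 1), not of FPKM, are compared here and in the later counts of genes higher or lower in mean. They were higher in CTX than in NC for 41 of the 66 members (59.5% of all genes). In HBOT they were higher than in CTX for 30 (38.4%) and higher than in NC for 40 (47.6%). Without HBOT replicate 2 these counts were 41 (59.4% of all genes), 29 (49.1%) and 42 (58.2%).

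The median difference of the members was close to that of all genes: 0.03 against 0.05 for CTX against NC, -0.01 against -0.07 for HBOT against CTX, and 0.05 against -0.01 for HBOT against NC. By compartment, the median for CTX against NC was 0.09 for the cytosol, -0.02 for the endoplasmic reticulum and -0.01 for mitochondria. For HBOT against CTX it was -0.01, 0.12 and -0.12, and without HBOT replicate 2 it was -0.01, 0.09 and -0.12. For HBOT against NC it was 0.07, 0.08 and -0.12, and without that library 0.10, 0.07 and -0.11. The members outside the 3 compartments had a median of -0.35 for HBOT against CTX, which was -0.04 without HBOT replicate 2.

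**Figure D2:**
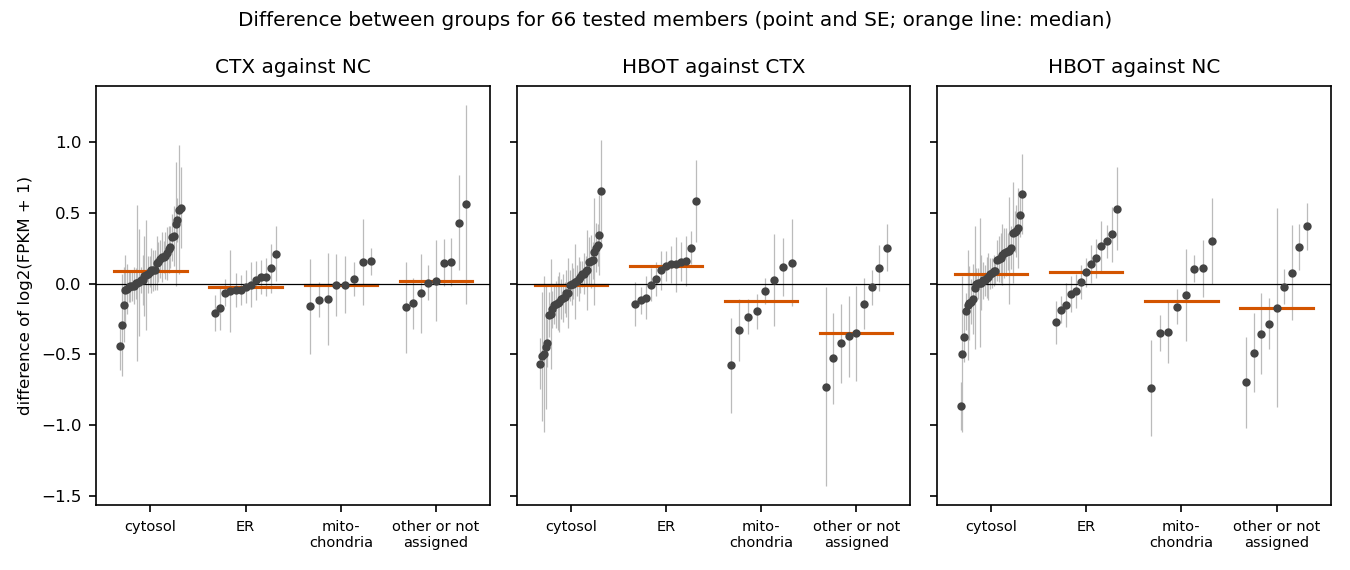
Difference of log2(FPKM + 1) between groups for the 66 tested members, by compartment, each point with its SE; the orange line is the median of the compartment. The medians of the cytosol, endoplasmic reticulum and mitochondria lie between -0.12 and 0.12, and no member was called.

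Groups did not overlap for 9 members in CTX against NC. The CTX libraries lay above NC for 6 (9.09% of 66; 13.2% of all genes), namely Dnajc17, Hsph1, Hspa8, Hspbp1, Dnajc11 and Dnajc7, and below for 3 (4.55%; 7.8% of all genes), Dnajc12, Dnajb12 and Dnajc18. For HBOT against CTX there were 2 above (3.03%; 3.76% of all genes), Dnajc25 and Dnajb9, and 3 below (4.55%; 6.44% of all genes), Dnajb3, Dnajc12 and Dnajc19. For HBOT against NC there were 4 above (6.06%; 10.9% of all genes), Dnajc17, Dnajc25, Hspa4 and Hspbap1, and 6 below (9.09%; 9.6% of all genes), Dnajc12, Dnaja3, Dnajc15, Hspb11, Dnajc14 and Dnajc18. With all 9 libraries, each of these shares was below that of all genes. Without HBOT replicate 2 this did not hold for HBOT against CTX, where 8 members lay below (12.1%; 9.6% of all genes) and 4 above (6.06%; 9.14% of all genes). For HBOT against NC there were then 8 above (12.1%; 23.5% of all genes) and 7 below (10.6%; 13.2% of all genes); for CTX against NC all genes gave 13.2% above and 7.79% below.

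Among cytosolic HSP90 and HSP70 genes, Hsp90ab1 was at 804, 861 and 786 FPKM in NC, 848, 888 and 857 in CTX, and 751, 942.5 and 888 in HBOT. Its groups overlapped, and its range over the 9 libraries was among the narrowest of the abundant members (highest over lowest 1.25). Hspa8 was at 620, 610 and 563 FPKM in NC, 651, 741 and 757 in CTX, and 564, 820 and 781 in HBOT. Each CTX library lay above each NC library (log2 fold change 0.26, SE 0.15, adjusted p = 0.740 by limma), while HBOT spanned both groups. Hsp90aa1 was at 138, 162 and 136 FPKM in NC, 153, 181 and 171 in CTX, and 143, 248 and 186 in HBOT, with all 3 groups overlapping. Hspa2, an HSP70 best known from male germ cells, was at 6.06, 6.31 and 5.35 FPKM in NC, 5.91, 7.10 and 6.09 in CTX, and 6.31, 4.13 and 5.69 in HBOT. Hspa4l, an HSP110 protein, was at 4.03, 4.02 and 3.69 FPKM in NC, 3.34, 4.202 and 4.09 in CTX, and 3.01, 3.16 and 3.70 in HBOT. Both were low beside Hspa8, and their groups overlapped.

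Hsph1 and Hspa4 encode HSP110 proteins, the exchange factors of HSP70. Hsph1 was at 36.3, 52.2 and 37.2 FPKM in NC, 52.2, 65.0 and 64.9 in CTX, and 39.6, 91.6 and 74.1 in HBOT. CTX lay above NC, though NC replicate 2 (52.16 FPKM) and CTX replicate 1 (52.17 FPKM) nearly met (log2 fold change 0.54, SE 0.29, adjusted p = 0.712 by limma), and HBOT overlapped both (0.63 against NC, SE 0.29, adjusted p = 0.427, and 0.98 without HBOT replicate 1 but 0.38 without HBOT replicate 2). Hspa4 was at 61.9, 64.9 and 61.4 FPKM in NC, 79.4, 63.3 and 59.8 in CTX, and 74.3, 97.9 and 73.3 in HBOT. HBOT lay above NC in 3 of 3 libraries (0.37, SE 0.15, adjusted p = 0.398 by limma), and the difference was 0.23 without HBOT replicate 2; against CTX it was 0.27 (SE 0.15), and 0.14 without that library. Hspbp1, another exchange factor, was at 22.4, 21.1 and 23.3 FPKM in NC, 27.0, 25.4 and 24.2 in CTX, and 24.0, 21.1 and 26.5 in HBOT. Its CTX libraries lay above NC (0.19, SE 0.11, adjusted p = 0.749 by limma).

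Among cytosolic DNAJ genes, Dnajb1, the classical HSF1-induced HSP40, was at 18.7, 24.8 and 19.6 FPKM in NC, 20.4, 28.0 and 32.9 in CTX, and 18.7, 26.6 and 28.6 in HBOT. Dnaja1 was at 99.3, 124 and 93.4 FPKM in NC, 88.3, 113 and 121 in CTX, and 97.5, 132 and 131 in HBOT. Both overlapped between all 3 groups. Dnajc17, which has a J domain and an RNA-recognition motif and works with the spliceosome, was at 5.62, 6.28 and 7.27 FPKM in NC, 10.2, 7.51 and 9.61 in CTX, and 10.6, 8.70 and 8.61 in HBOT. It had the smallest p of the members higher in CTX than in NC (log2 fold change 0.45, SE 0.15, adjusted p = 0.492 by limma) and of those higher in HBOT than in NC (0.48, SE 0.15, adjusted p = 0.332). Both treated groups share the NC libraries as reference. Dnajc9, a histone chaperone, was at 21.1, 18.8 and 28.2 FPKM in NC, 33.5, 25.9 and 26.1 in CTX, and 24.3, 29.1 and 25.7 in HBOT (0.33 for CTX against NC, SE 0.17, and 0.21 without CTX replicate 1 or without NC replicate 2), with overlap. Dnajc24, which takes part in making diphthamide on elongation factor 2, was at 11.2, 10.5 and 9.88 FPKM in NC, 7.17, 7.22 and 11.3 in CTX, and 10.3, 27.4 and 9.07 in HBOT. Its differences were -0.29 for CTX against NC (SE 0.36) and 0.66 for HBOT against CTX (SE 0.36). The first was -0.19 without CTX replicate 1 and -0.49 without CTX replicate 3, and the second 0.19 without HBOT replicate 2.

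Dnajc12, a partner of the aromatic amino acid hydroxylases, was singled out after its values were seen, since its mean of 1.61 FPKM lies under the 2 FPKM set for naming. It was at 3.07, 2.00 and 2.23 FPKM in NC, 1.34, 1.66 and 1.52 in CTX, and 1.03, 0.592 and 1.02 in HBOT. The 3 groups did not overlap, NC being highest and HBOT lowest. The log2 fold change was -0.44 for CTX against NC (SE 0.17, adjusted p = 0.573 by limma), -0.42 for HBOT against CTX (SE 0.17, adjusted p = 0.710) and -0.87 for HBOT against NC (SE 0.17, adjusted p = 0.235). Without HBOT replicate 2 the last was -0.75 (adjusted p = 0.234). With a weight estimated for each library it passed in that comparison (adjusted p = 0.0462), the only member called under any setting tried. Dnajb3, also under 2 FPKM and singled out in the same way, was at 1.36, 1.62 and 1.16 FPKM in NC, 1.61, 1.69 and 1.79 in CTX, and 1.20, 0.453 and 0.895 in HBOT (-0.57 for HBOT against CTX, SE 0.18, adjusted p = 0.710). These levels are close to the filter of 1 FPKM.

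The stress-inducible HSP70 genes Hspa1a and Hspa1b were low and varied widely within groups. Hspa1b was at 11.3, 23.0 and 12.5 FPKM in NC, 18.8, 19.4 and 28.1 in CTX, and 16.2, 6.82 and 28.9 in HBOT. Hspa1a was at 6.10, 12.8 and 7.31 FPKM in NC, 10.2, 9.96 and 14.9 in CTX, and 8.83, 3.66 and 15.7 in HBOT. The lowest and the highest value of each were both in the HBOT group, in replicates 2 and 3. The ratio of Hspa1b to Hspa1a stayed between 1.71 and 1.95, and since they are near-identical copies the division of reads between them is uncertain. Hspa1l, their neighbour, was at 0.986 to 1.84 FPKM. Of the small heat shock proteins, Hspb1 (HSP27) was at 24.1, 25.5 and 26.9 FPKM in NC, 26.1, 25.1 and 24.2 in CTX, and 22.3, 26.9 and 27.7 in HBOT, with highest over lowest 1.24. Hspb6 lay at 3.90 to 8.75. Hspb8, which acts with BAG3 in clearing clumped proteins, was at 14.9, 16.3 and 31.9 FPKM in NC, 19.7, 19.4 and 20.9 in CTX, and 15.4, 43.0 and 19.4 in HBOT. Its highest NC library and its highest HBOT library stood apart from their groups.

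In the endoplasmic reticulum, Hspa5 (BiP), the HSP70 of that compartment, was at 293, 321 and 422 FPKM in NC, 404, 333 and 460 in CTX, and 372, 540 and 409 in HBOT. Hsp90b1 (GRP94) was at 295, 339 and 444 FPKM in NC, 390, 320 and 443 in CTX, and 430, 460 and 390 in HBOT. For both genes the groups overlapped, and NC replicate 3 lay above the other NC libraries. Dnajb11, a DNAJ partner of BiP, was at 49.1, 46.2 and 64.4 FPKM in NC, 53.9, 49.1 and 58.0 in CTX, and 56.3, 65.1 and 58.1 in HBOT. Dnajc3 (p58IPK), another partner, was at 26.7, 27.7 and 34.3 FPKM in NC, 33.7, 25.8 and 32.4 in CTX, and 32.2, 31.6 and 33.8 in HBOT. Hspa5, Hsp90b1, Dnajb11 and Dnajc3 shared their order in NC and in CTX in part: NC replicate 3 was the highest NC library and CTX replicate 2 the lowest CTX library for all 4. Dnajb9 (ERdj4), a target of the unfolded protein response, was at 11.7, 15.5 and 12.9 FPKM in NC, 12.5, 11.7 and 14.2 in CTX, and 14.7, 34.3 and 14.8 in HBOT. HBOT lay above CTX (0.58, SE 0.29, adjusted p = 0.710 by limma), but the difference was 0.19 without replicate 2.

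Dnajc25, a membrane DNAJ of the endoplasmic reticulum, was at 4.94, 5.28 and 5.09 FPKM in NC, 5.49, 5.57 and 4.87 in CTX, and 6.32, 7.25 and 5.996 in HBOT. Each HBOT library lay above all NC and CTX libraries, with differences of 0.30 against NC (SE 0.12, adjusted p = 0.393 by limma) and 0.25 against CTX (SE 0.12, adjusted p = 0.710); without HBOT replicate 2 they were 0.23 and 0.18. Dnajb12 and Dnajb14, membrane DNAJ proteins that help remove misfolded proteins, were lower in mean in CTX than in NC. Dnajb12 was at 19.2, 18.5 and 20.8 FPKM in NC, 18.3, 15.7 and 16.3 in CTX, and 19.2, 15.6 and 20.9 in HBOT (-0.21 for CTX against NC, SE 0.13). Dnajb14 was at 6.96, 7.68 and 8.46 FPKM in NC, 7.21, 5.66 and 7.30 in CTX, and 7.36, 5.41 and 5.89 in HBOT (-0.18 for CTX against NC, SE 0.15, and -0.27 for HBOT against NC, SE 0.15). Its difference for CTX against NC was -0.07 without CTX replicate 2 and -0.11 without NC replicate 3. Dnajc14 was at 21.2, 21.4 and 20.7 FPKM in NC, 19.2, 21.1 and 20.02 in CTX, and 19.5, 16.9 and 19.0 in HBOT (-0.19 for HBOT against NC, SE 0.10). None of these passed under limma.

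Among mitochondrial members, Dnaja3 (TID1), the DNAJ partner of mitochondrial HSP70, was at 28.4, 28.3 and 24.1 FPKM in NC, 22.0, 25.6 and 26.9 in CTX, and 21.8, 18.6 and 22.5 in HBOT. Each HBOT library lay below each NC library (log2 fold change -0.35, SE 0.12, adjusted p = 0.364 by limma, and -0.27 without replicate 2), with overlap for CTX against NC (-0.12, SE 0.12, but -0.04 without CTX replicate 1 and -0.19 without NC replicate 3) and for HBOT against CTX (-0.23, SE 0.12, and -0.15 without replicate 2). Dnajc15 and Dnajc19 encode J proteins of the import motor of the inner membrane. Dnajc15 was at 103, 99.6 and 124 FPKM in NC, 90.3, 85.5 and 117 in CTX, and 79.5, 34.2 and 97.8 in HBOT (-0.74 for HBOT against NC, SE 0.34, and -0.58 against CTX, SE 0.34). Without HBOT replicate 2 these were -0.29 and -0.13, and the second was -0.88 without HBOT replicate 3. Dnajc19 was at 14.1, 14.0 and 16.6 FPKM in NC, 15.4, 15.0 and 15.2 in CTX, and 13.9, 11.3 and 14.4 in HBOT (-0.20 against CTX, SE 0.12, and -0.10 without replicate 2). Hspa9 was at 130, 130 and 110 FPKM in NC, 119, 121 and 128 in CTX, and 115, 192 and 106 in HBOT, level but for the high HBOT replicate 2.

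The chaperonin genes Hspd1 and Hspe1 varied more within groups than between them. Hspd1 was at 344, 371 and 168 FPKM in NC, 199, 302 and 285 in CTX, and 211, 358 and 238 in HBOT. Hspe1 was at 206, 209 and 106 FPKM in NC, 154, 199 and 205 in CTX, and 152, 290 and 194 in HBOT. Both were lowest in NC replicate 3, and within CTX and HBOT replicate 1 was the lowest for both. Hspa8, Hsp90aa1, Hsp90ab1 and Dnaja1 had the same lowest library in each group, while Hspb1 and Hspa9 did not. The ratio of Hspd1 to Hspe1 stayed between 1.23 and 1.77 while Hspd1 itself spanned 2.21 times. Group means were 294 ± 110, 262 ± 55.5 and 269 ± 78.3 FPKM for Hspd1 in NC, CTX and HBOT (SD, n = 3). Dnaja4, a cytosolic partner of HSP70, was at 40.1, 33.8 and 15.4 FPKM in NC, 12.5, 37.5 and 44.4 in CTX, and 12.2, 34.8 and 16.6 in HBOT. Its 4 lowest libraries, NC replicate 3, CTX replicate 1 and HBOT replicates 1 and 3, were also the 4 lowest for Hspd1. Hspd1, Hspe1 and Dnaja4 each hold a heat shock pair in a promoter window described above. They are among 14 of the 60 members that do. The 14 also include Dnaja1, with the same lowest library in each group as Hspd1. Hsph1 (36.3 to 91.6 FPKM over the 9 libraries), also of the 14, shared it in CTX and HBOT. Hspb1 (22.3 to 27.7), another of them, shared it in HBOT only. A part of the pair in these levels was not tested.

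The 5 listed steroid cell markers did not share 1 order over these libraries. Lhcgr, the receptor of luteinizing hormone, was at 107, 125 and 25.4 FPKM in NC, 64.9, 112 and 178 in CTX, and 73.5, 37.3 and 61.3 in HBOT, so that the 4 libraries low for Hspd1 and Dnaja4 were at most at 73.5 FPKM, but so was HBOT replicate 2, which was high for both. Other markers were high in some of the 4 and low in others. Star was highest of its group in NC replicate 3 (544 FPKM), but lowest in CTX replicate 1 (76.8) and HBOT replicate 1 (58.1). Cyp17a1 was highest of its group in CTX replicate 1 (511 FPKM) and HBOT replicate 1 (698 FPKM). It was lowest in NC replicate 3 (29.0) and HBOT replicate 3 (283). Akr1c18 was lowest of its group in NC replicate 3 (2127 FPKM) and HBOT replicate 1 (194). It was highest in CTX replicate 1 (289) and HBOT replicate 3 (2848 FPKM, the highest of all 9). Cyp11a1 was lowest of its group in NC replicate 3 (2923 FPKM) and CTX replicate 1 (1468), and highest in HBOT replicate 3 (3062). The summed FPKM of the 5 listed steroid cell markers was 5649 to 7489 in NC, 2410 to 5203 in CTX and 3035 to 6630 in HBOT, with none of the 5 listed at 0 in any library. The part of these cells in the levels of Hspd1, Hspe1 and Dnaja4 was not tested.

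**Figure D3:**
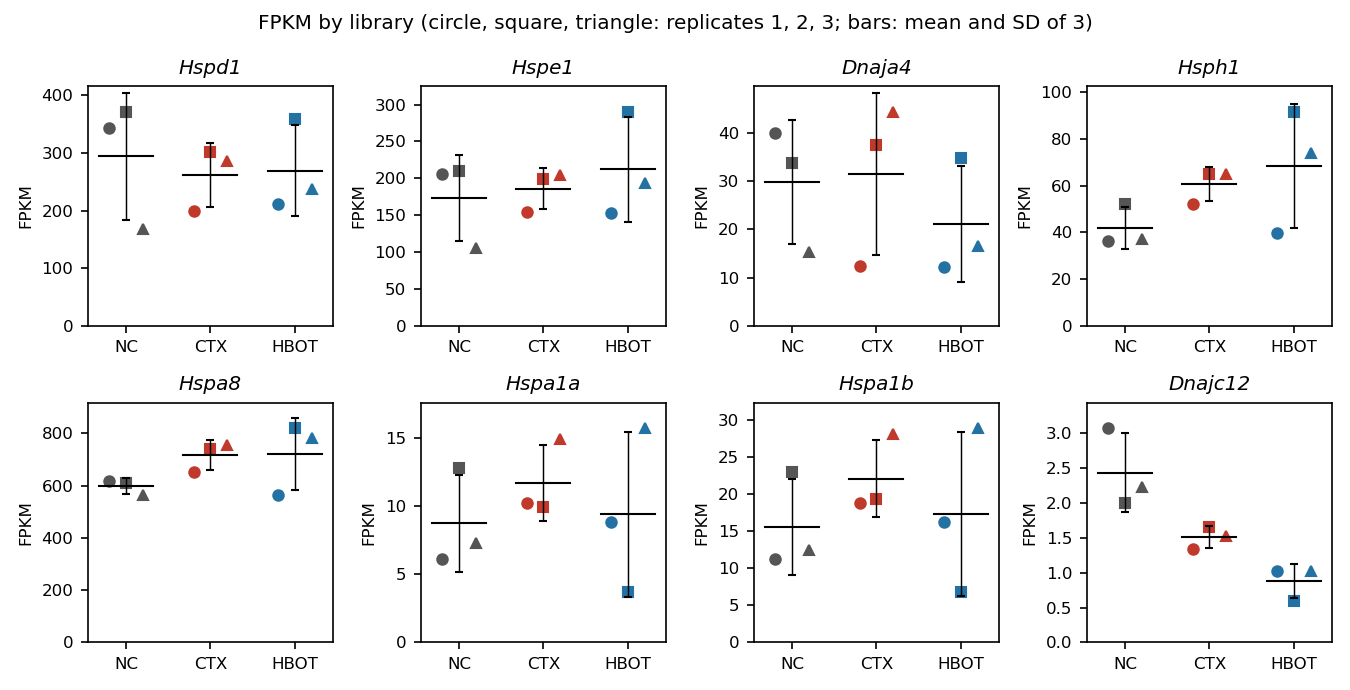
FPKM of 8 members in each library, by group; symbols give the replicate, and the bars the mean and SD of 3. Hspd1, Hspe1, Dnaja4 and Hspa8 share the lowest library in each of the 3 groups. Dnajc12, not called, has means of 2.43 FPKM in NC, 1.51 in CTX and 0.879 in HBOT without overlap.

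Other marker lists also differed between NC and the treated groups. The 5 oocyte markers summed to 78.0 to 115 FPKM in NC, 130 to 198 in CTX and 195 to 223 in HBOT. The 5 erythroid markers summed to 62.8 to 207 FPKM in NC, 387 to 816 in CTX and 317 to 735 in HBOT, and the 5 leukocyte markers to 41.8 to 50.3, 56.1 to 75.0 and 74.6 to 81.9. Their part in the member differences given above was not tested.

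HBOT replicate 2 was the library farthest from the mean of the other 8 for 40 of the 66 members (60.6%), against 52.7% of all tested genes. It lay over 1 log2 unit away for 12 members (18.2%), against 12.3% of all tested genes, and no other library had more than 1 such member. Over 0.5 log2 units away, 13 members were above and 15 below, while among all tested genes 11.2% were above and 28.9% below. The members above included Dnajc24 (27.4 FPKM, against 7.17 to 11.3 in the other 8), Dnajb9 (34.3 against 11.7 to 15.5), Dnajc21 (42.0 against 16.3 to 21.0) and Hspb8 (43.0 against 14.9 to 31.9). Dnajc21 works in the maturation of ribosomes. Below were Dnajc15 (34.2 against 79.5 to 124), Hspb11 (3.41 against 8.27 to 13.2), Hspa1b (6.82 against 11.3 to 28.9), Hspa1a (3.66 against 6.10 to 15.7), Hspb2 (0.633 against 1.93 to 4.27), Dnajc28 (0.939 against 2.93 to 3.79) and Dnajc4 (8.31 against 14.4 to 21.5). Hspb11 is a subunit of the cargo trains of cilia. Of the abundant cytosolic members, some were also high there, such as Hsp90aa1 at 248 FPKM against 136 to 186 and Dnajb6 at 94.7 against 55.9 to 60.9. The 5 ovulatory markers summed to 785 FPKM in that library and to at most 3.55 in the other 8, and their part in these deviations was not tested.

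**Figure D4:**
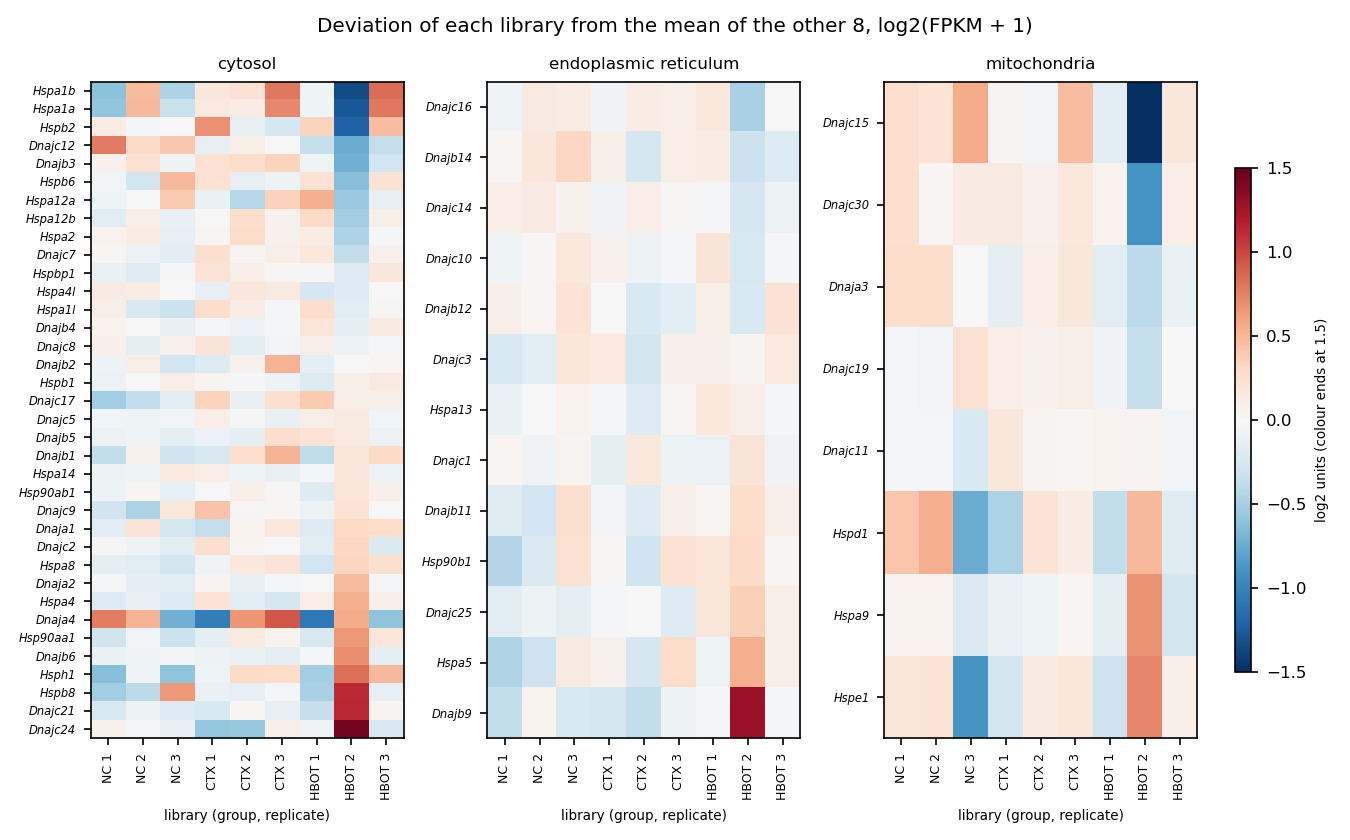
Each cell is the deviation of a library from the mean of the other 8 on log2(FPKM + 1), for the 57 tested members of the 3 compartments, red above and blue below, with colours ending at 1.5. HBOT replicate 2 has the strongest colours, with 8 of the 57 over 1 log2 unit away. Within their groups, NC replicate 3, CTX replicate 1 and HBOT replicate 1 are lowest for Dnaja4, Hspd1 and Hspe1.

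Of the members outside the 3 compartments, Hspbap1, which binds HSP27, was at 2.24, 2.77 and 3.45 FPKM in NC, 3.16, 3.88 and 2.68 in CTX, and 4.44, 4.01 and 3.62 in HBOT. HBOT lay above NC (0.40, SE 0.17, adjusted p = 0.406 by limma, and also 0.40 without replicate 2) and overlapped CTX (0.25, SE 0.17, and 0.16 without CTX replicate 3). Hspb11 was at 10.6, 11.5 and 13.2 FPKM in NC, 8.27, 10.8 and 12.3 in CTX, and 10.4, 3.41 and 8.59 in HBOT (-0.70 for HBOT against NC, SE 0.32, and -0.53 against CTX, SE 0.32). Without replicate 2 these were -0.28 and -0.12, and the second was -0.80 without replicate 1. Dnajc28 was at 3.48, 3.34 and 3.79 FPKM in NC, 3.06, 3.18 and 3.77 in CTX, and 2.93, 0.939 and 3.41 in HBOT (-0.42 against CTX, SE 0.28, -0.06 without replicate 2 and -0.65 without replicate 3). Dnajc18 was at 10.7, 10.4 and 10.8 FPKM in NC, 8.53, 10.3 and 9.89 in CTX, and 10.1, 6.08 and 10.1 in HBOT (-0.14 for CTX against NC, SE 0.18, and -0.07 without CTX replicate 1).

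Dnajc4 was at 21.3, 14.4 and 19.1 FPKM in NC, 18.2, 17.9 and 18.8 in CTX, and 14.7, 8.31 and 21.5 in HBOT, with overlap between all groups. Dnajb13, known from the radial spokes of cilia and sperm tails, was at 13.3, 8.43 and 13.1 FPKM in NC, 24.5, 9.57 and 16.2 in CTX, and 16.9, 9.07 and 11.4 in HBOT. The 5 listed genes of oviduct and ciliated epithelium summed to 2.26 to 10.5 FPKM over the libraries. Most of that was Ovgp1 (1.99 to 10.1 FPKM), with Foxj1, Dnah5, Tekt1 and Pax8 each under 1 FPKM.

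Other tested members spanned narrow ranges: Dnajc5 lay at 24.3 to 28.4 FPKM over the 9 libraries, Hspa14 23.3 to 28.1, Dnajb4 20.7 to 25.2, Dnajc8 60.7 to 75.5, Dnajc1 12.1 to 15.1, Hspa13 11.7 to 14.7 and Dnajc10 31.6 to 41.3. Wider ranges were found for Hspa12a (6.77 to 14.2), Hspa12b (3.20 to 5.97), Dnajb2 (17.1 to 28.8) and Dnajc30 (5.79 to 12.7). The 9 members under the filter were Dnajb7, Dnajb8, Dnajc5b, Dnajc5g, Dnajc6, Dnajc22, Hspb3, Hspb7 and Hspb9. Hspb3, a small heat shock protein of muscle, was listed at 0 in all 9 libraries, and Dnajb8, a DNAJ of the testis, in all but HBOT replicate 3 (0.0673). Hspb7 was the highest of the 9 in any library, at 1.32 FPKM in NC replicate 3.

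The wider chaperone network was read from 63 genes in 5 lists, all 63 tested, and 0 were called in any comparison. Hsf1, the heat shock factor, was at 28.3, 33.8 and 29.2 FPKM in NC, 35.7, 35.9 and 38.5 in CTX, and 34.0, 40.7 and 34.7 in HBOT. Both treated groups lay above all NC libraries (log2 fold change 0.26 for CTX, SE 0.11, adjusted p = 0.612 by limma). Hsf2 lay at 11.3 to 14.7 FPKM, Hsf4 at 0.229 to 1.20 and Hsbp1, a negative regulator of HSF1, at 70.3 to 88.1. Of the 22 cochaperones of HSP70 and HSP90, 14 were higher in mean in CTX than in NC, with 6 above without overlap and 1 below (63.6% higher in mean, against 59.5% of all genes, of which 13.2% lay above and 7.8% below). Ahsa1, which speeds the ATPase of HSP90, was at 85.3, 89.96 and 79.8 FPKM in NC and 105, 103 and 111 in CTX (0.32, SE 0.12, adjusted p = 0.573). Bag4 was at 7.97, 8.04 and 8.52 against 6.44, 6.10 and 5.75 FPKM (-0.37, SE 0.21).

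For HBOT against CTX, Bag4 was at 6.04, 12.2 and 7.51 FPKM in HBOT (0.38, SE 0.21, 0.13 without replicate 2 and 0.58 without replicate 1) and Stub1, the ubiquitin ligase CHIP, at 86.9, 73.9 and 94.997 FPKM against 98.8, 114 and 116 (-0.36, SE 0.11, adjusted p = 0.710 by limma). For HBOT against NC, Fkbp4, an immunophilin of steroid receptor complexes, was at 125, 233 and 141 FPKM against 100.2, 110 and 83.5. The difference was 0.72 (SE 0.23, adjusted p = 0.332 by limma), and 0.45 without replicate 2. In CTX, Fkbp4 was at 163, 126 and 138 FPKM, also above all NC libraries (0.53, SE 0.23, adjusted p = 0.612 by limma). For Fkbp4, HBOT against CTX was 0.18 (SE 0.23) with overlap, and -0.09 without HBOT replicate 2. Fkbp5, its counterpart that is induced by glucocorticoids and progesterone, was at 143, 70.0 and 125 FPKM against 231, 232 and 167 (-0.94, SE 0.39, adjusted p = 0.411), and -0.63 without replicate 2.

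In the list of 20 chaperones and unfolded protein response genes of the endoplasmic reticulum, 15 were higher in mean in CTX than in NC (75%, against 59.5% of all genes), with 0 above without overlap and 2 below (13.2% and 7.8% of all genes). In HBOT, 14 were higher in mean than in NC (70%, against 47.6% of all genes), with 3 above and 0 below (10.9% and 9.6% of all genes). That count was 15 without HBOT replicate 2, with 5 above and 1 below (58.2%, 23.5% and 13.2% of all genes). Xbp1, the spliced transcription factor of that response, was at 99.1, 182 and 109 FPKM in HBOT against 73.4, 72.6 and 89.6 in NC. The difference was 0.67 (SE 0.22, adjusted p = 0.343 by limma), and 0.40 without replicate 2. In CTX, Xbp1 was at 105, 87.9 and 116 FPKM, with overlap with NC (0.38, SE 0.22). For Xbp1, HBOT against CTX was 0.29 (SE 0.22) with overlap, and 0.02 without HBOT replicate 2. Atf6, its membrane-bound counterpart, was at 9.11, 6.36 and 9.36 FPKM in CTX against 9.54, 10.3 and 10.5 in NC (-0.28, SE 0.15, and -0.12 without CTX replicate 2). The 8 subunits of the cytosolic chaperonin TRiC/CCT were higher in mean in HBOT than in NC in 8 of 8, with 0 free of overlap (median 0.11), where 47.6% of all genes were higher. That count rested on HBOT replicate 2: without it 4 of 8 were higher, against 58.2% of all genes, and the median was -0.00038. Its subunit Cct4 was at 91.5, 149 and 94.3 FPKM in HBOT against 97.2, 90.2 and 89.7 in CTX (0.23, SE 0.17, 0.01 without replicate 2 and 0.36 without replicate 1). Of the 9 mitochondrial chaperones and proteases, 8 were lower in mean in HBOT than in CTX and 1 was higher (11.1%, against 38.4% of all genes), and 3 lay below without overlap, as did 6.44% of all genes. The counts were also 8 and 3 without HBOT replicate 2, where 49.1% of all genes were higher and 9.6% lay below. The protease Htra2 was at 29.6, 21.2 and 29.0 FPKM against 32.2, 32.1 and 34.7 (-0.32, SE 0.13), and -0.17 without replicate 2. Lonp1, the main protease of the mitochondrial matrix, was at 68.4, 67.5 and 70.3 FPKM in HBOT against 95.6, 85.3 and 76.2 in NC (-0.31, SE 0.16, adjusted p = 0.470).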

How the data were processed

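Per the labels' protocols, total RNA came from TRIzol extraction, and poly(A) RNA captured on oligo(dT) beads went into VAHTS libraries. The authors deposited 1 table of FPKM with a column per library, and 0 columns stayed unmatched to a sample. Reads passed through fastp 0.23.4 and the build was GRCm39, both per the submitters' processing notes; which aligner, counting program or annotation was used is not given in the sources used here. Column sums ran from 394046 to 420058, so the FPKM were not rescaled. Read counts are not in this unit, so depth is unknown and only the libraries' spread shows the precision.

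The scale was log2(FPKM + 1), with a filter of 1 FPKM in 3 libraries. All 9 libraries entered 1 group-means model (limma 3.58.1, R 4.3.3, eBayes with trend), with Benjamini-Hochberg adjustment over 13338 genes. The procedure was tested on simulated data. Members, compartments, lists and rules were chosen with earlier results of these data known. Named with differences were the 5 members of smallest p in each direction of a comparison with a mean of at least 2 FPKM, and the 2 list genes of smallest p in each direction. Given by library were also 20 core members, the 3 most abundant of each compartment and the 5 members with the farthest single library (1 member that the rule takes is not reported here); Dnaja4 and Hspb8 were added after their values were seen. Tried besides were no filter, a 5 FPKM filter, a pseudocount of 0.1, TPM and median-of-ratios scaling, a fit of 2 groups, a replicate block, no trend, library weights and each library left out. Protein sequences were not analysed here. Promoter windows are from RefSeq. Figures were drawn with matplotlib 3.10.9 in Python 3.11.15.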

Additional observations from a re-analysis of the deposited data

How the results depend on the processing

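Under 18 alternatives to the fit, 0 members were called in each comparison except that 1 member, Dnajc12, was called in HBOT against NC with library weights (adjusted p = 0.0462; over all settings 0.0462 to 0.599); the cause was not tested. The 46 log2 fold changes of named members and list genes kept their direction under every alternative that gave a value. There were 15, 16 and 15 in the 3 comparisons, with 269, 284 and 268 values and 0 reversed. Most of the 46 had been picked for a small p in these same data. The filters, no trend, the replicate block, the fit of 2 groups and leaving out a library of the third group cannot alter a fold change. The tally of directions was thus in part fixed beforehand. Scaling moved the direction of all genes at an unadjusted p under 0.05: for CTX against NC 65.6% were higher, 54.8% with TPM and 49.6% with median-of-ratios scaling, for HBOT against CTX 39.7% and 51.1% with median-of-ratios scaling, and for HBOT against NC 52.4% and 42.3% with TPM. A filter of 5 FPKM gave no value for the low members. Of the 9 same-numbered pairs of libraries, 2 correlated over 0.1 in their deviations from the group means (-0.287 to 0.156), and different numbers reached 0.409. With 3 libraries a group, these correlations cannot exclude that replicate numbers pair the libraries. With the replicate block 0 members were called, and 4, 1 and 8 had an unadjusted p under 0.05, against 2, 2 and 6 without it. Of all 13338 genes, 969, 773 and 1442 did with the block, against 1065, 812 and 1584 without it.

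Counts at an unadjusted p under 0.05 rested on single libraries, among the 66 members and among all genes (13239 to 13299 in these fits). For CTX against NC the count of 2 was 0 without NC replicate 1 or CTX replicate 3, 1 without CTX replicate 1, 3 without NC replicate 3 or CTX replicate 2, and 4 without HBOT replicate 1 or 2. Of all genes, 1065 became 723, 1040, 698, 879, 919, 956 and 2092 in that order. For HBOT against CTX the count of 2 was 1 without CTX replicate 2 or 3, 4 without CTX replicate 1, 3 without HBOT replicate 2, 5 without HBOT replicate 1 and 9 without HBOT replicate 3. The 812 of all genes became 478, 486, 1052, 687, 1293 and 1556 in that order. For HBOT against NC the count of 6 was 1 without NC replicate 1, and 3 without NC replicate 2 or HBOT replicate 2. It was 5 without CTX replicate 1, 8 without NC replicate 3, 11 without HBOT replicate 3 and 13 without HBOT replicate 1. Here the 1584 of all genes became 878, 902, 1740, 1614, 1283, 2077 and 1812 in that order.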
